A study of Rattus norvegicus with 8 samples.

Results

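Semaphorins are secreted or membrane-bound guidance proteins, plexins are their main signal-transducing receptors, and neuropilins are coreceptors that bind secreted class 3 semaphorins and vascular endothelial growth factors. The members were all rows of the striatal count data whose symbol begins with Sema3 to Sema7 or with Plxna, Plxnb, Plxnc or Plxnd, together with Nrp1 and Nrp2. This gave 26 of 17337 genes, of which 19 were semaphorins, 5 were plexins and 2 were neuropilins. All 26 passed the filter on low counts, which left 12014 genes for testing. Plxna1, Plxna4, Plxnb1, Plxnc1 and Sema6a also carry a RefSeq symbol that meets this definition and were not analysed here.

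The samples were striata of 8 wild-type male Sprague-Dawley rats. In the METH group 4 rats self-administered methamphetamine (METH) intravenously at 0.05 mg/kg per infusion in sessions of 2 h per day for 16 days, and in the saline group 4 rats self-administered saline on the same schedule after the same catheter surgery. Lever pressing had been trained with food in both groups. The study began with more METH than saline rats and selected 4 of each with stable responding. The METH rats took more infusions than the saline rats. Rats were anesthetized with ketamine and xylazine before the brain was taken. Age and the interval from the last session to death are not given in the sources used here. The comparison of the groups asks which genes differ in the striatum after METH self-administration, and the rats of both groups had learned the same lever response.

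When a semaphorin engages a plexin, the plexin's cytoplasmic domain acts on small GTPases, and the actin cytoskeleton of the receiving process retracts or turns. The family is best known for wiring axons during development. In the adult brain several members persist at synapses, in myelinating cells and in blood vessels, and some class 3 ligands and neuropilins regulate spine number. Neuropilins have only a short cytoplasmic tail and signal mainly through the plexin beside them.

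The 250 bases before the annotated start of Nrp2 (GRCr8, chr9:71617004-71617253, plus strand) and of Sema4c (GRCr8, chr9:46297999-46298248, minus strand) are shown because these were the 2 members whose METH and saline rats did not overlap. The windows were searched on both strands for the cAMP response element TGACGTCA, the Egr site GCGTGGGCG and the AP-1 site TGACTCA, and neither held a match.
Nrp2: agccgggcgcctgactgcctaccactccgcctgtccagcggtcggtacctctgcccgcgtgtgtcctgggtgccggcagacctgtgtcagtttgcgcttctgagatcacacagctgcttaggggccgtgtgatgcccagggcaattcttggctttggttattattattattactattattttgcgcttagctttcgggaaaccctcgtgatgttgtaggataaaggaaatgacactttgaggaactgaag
Sema4c: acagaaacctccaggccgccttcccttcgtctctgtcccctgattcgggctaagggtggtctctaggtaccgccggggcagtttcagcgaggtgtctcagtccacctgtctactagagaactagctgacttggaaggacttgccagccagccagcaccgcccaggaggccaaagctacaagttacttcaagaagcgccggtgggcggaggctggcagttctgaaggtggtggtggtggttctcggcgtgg

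Of the 20 members with a 300-base start window in RefSeq (250 bases before and 50 after the start), 0 held the cAMP response element, 0 held the AP-1 site and 2, Plxna2 and Sema6d, held the Egr site. Among all 33469 windows the shares were 1.83%, 4.63% and 0.544%. The stretches with the Egr site, which is in capitals, are from GRCr8 chr13:108691420-108691478 and chr3:132337110-132337168, both on the plus strand. The match begins 85 bases before the start used for Plxna2 and 221 bases before that used for Sema6d. Such a match describes the letters only.
Plxna2: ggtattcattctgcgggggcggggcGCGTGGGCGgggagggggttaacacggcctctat
Sema6d: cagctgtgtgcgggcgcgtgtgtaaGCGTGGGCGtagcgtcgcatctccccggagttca

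The total count per rat lay between 18135939 and 21211920, and 3 counts, the smallest number taken as detected, corresponded to between 0.141 and 0.165 CPM (counts scaled to the size of the library). On the first principal component of all genes, which held 26.4% of the variance, METH rat 3 stood apart from the other METH rats. It lay at 39.5 against 0.257 to 5.29. The saline rats lay at -24.6 (rat 3) to -4.17 (rat 1), so the groups did not overlap on this component. The striatal projection neuron markers Ppp1r1b, Drd1, Drd2, Adora2a, Penk, Tac1 and Bcl11b were all present in every rat. Their summed level was 12080 to 12642 CPM in saline rats and 12838 to 16374 CPM in METH rats. Ppp1r1b alone had a mean of 7169 CPM in saline and 8499 CPM in METH rats. Of the 7 genes 4 had a positive log2 fold change, and 0 were called. Markers of cortical excitatory neurons (Slc17a7, Tbr1, Neurod6 and Rorb) summed to 78.5 CPM in saline rat 1 and to 9.23 to 18.8 CPM in the other rats, where Neurod6 was at 0 counts in saline rat 2 and METH rat 3. Slc17a7 made up 65.8 CPM of the sum in saline rat 1, whereas Rorb, at 5.32 CPM there, was below the other saline rats. Of the 7 microglial markers 1, Cx3cr1, was called lower in METH rats, and 1, C1qa, had a positive log2 fold change. The microglial sums overlapped, at 308 to 360 CPM in saline and 272 to 330 CPM in METH rats. The 4 choroid plexus markers (Ttr, Folr1, Kl and Clic6) summed to 3.95 to 5.55 CPM in saline and 5.62 to 8.91 CPM in METH animals, without overlap. Each of these 4 genes by itself overlapped between the groups, and Kl had a lower mean in METH rats. Of the 2 that were tested, 0 were called. The part of these cell types in the members' values was not tested.

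No member was called differentially expressed. A call required an FDR under 0.05 and a mean log2 CPM over 1. The quasi-likelihood F-test of edgeR called 0 of the 26 members, against 0.516% of all genes tested, and the lowest FDR of a member was 0.204, that of Sema4c. DESeq2, limma-voom and edgeR's likelihood ratio and exact tests also called 0 members. At an unadjusted p below 0.05, 4 members were lower in METH rats (Nrp2, Nrp1, Sema4c and Sema5a), which is 15.4% of the members against 4.88% of all genes tested, and 0 were higher, against 6.26%. In Nrp2 and Sema4c all METH rats lay below the lowest saline rat, which is 7.69% of the members against 2.65% of all genes, and 0 members lay wholly above, against 3.75%. None of these 4 genes passed the correction over all genes.

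**Figure D1:**
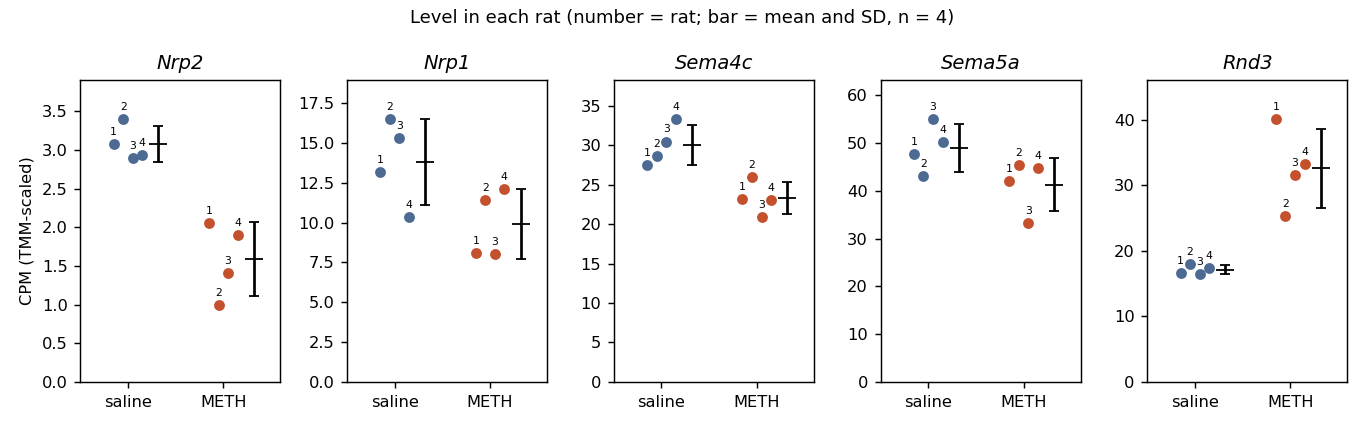
Level in each rat of the 4 members with an unadjusted p below 0.05 and of Rnd3, in TMM-scaled CPM on axes that start at 0, with points numbered by rat and bars for the mean and SD of 4 rats. Nrp2, Sema4c and Rnd3 show no overlap between the groups, while the groups of Nrp1 and Sema5a overlap.

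Nrp2, the coreceptor for Sema3f, was the member with the largest difference between the groups. Its raw counts were 56, 68, 60 and 62 in saline rats 1 to 4 and 42, 21, 25 and 36 in METH rats 1 to 4, or 3.07, 3.40, 2.90 and 2.93 CPM and 2.06, 1.00, 1.41 and 1.90 CPM after TMM scaling. The 4 saline rats were close to each other, and METH rats 2 and 3 were the lowest. The mean was 3.08 ± 0.229 CPM (SD, n = 4) for saline and 1.59 ± 0.480 CPM (SD, n = 4) for METH. The log2 fold change was -0.95 with a standard error of 0.29 and a 95% interval from -1.58 to -0.32. By the edgeR quasi-likelihood test its unadjusted p was 0.00616 and its FDR 0.245, and the exact permutation test across the rats gave the smallest two-sided p that 4 against 4 allow, 0.0286. Any gene whose groups do not overlap has that permutation p. With any single rat left out its log2 fold change stayed between -1.10 and -0.78. Without METH rat 3 it was -0.90 with an unadjusted p of 0.0152 in the edgeR quasi-likelihood test. Each library held only 21 to 68 counts of Nrp2, and in RefSeq (GRCr8) a long noncoding RNA model overlaps it, as another does Nrp1.

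Nrp1, the coreceptor for Sema3a and a receptor on both neurons and endothelial cells, was also at a lower mean level in METH rats, but the groups overlapped. It was at 13.2, 16.5, 15.3 and 10.3 CPM in saline rats 1 to 4 and at 8.08, 11.4, 8.02 and 12.1 CPM in METH rats 1 to 4. Saline rat 4 lay within the METH range, and the exact permutation test gave a two-sided p of 0.114. The log2 fold change was -0.48 (standard error 0.19, unadjusted p = 0.0219, edgeR quasi-likelihood FDR = 0.369). In the same test its unadjusted p was above 0.05 when METH rat 1, METH rat 3, saline rat 2 or saline rat 3 was left out, reaching 0.0760, and without METH rat 3 the log2 fold change was -0.39 with a p of 0.0638.

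The endothelial markers Cldn5, Pecam1, Flt1, Tek and Cdh5 had negative log2 fold changes in 5 of 5 genes, against 51.4% of all genes tested. Of these markers 0 were called, and they summed to 380 to 551 CPM in saline rats and 384 to 408 CPM in METH rats. Their median log2 fold change was -0.20, and their part in the value of Nrp1 was not tested. In tissue homogenates of this kind, fewer cells of a type and less RNA per cell cannot be told apart.

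Sema4c, a membrane-bound class 4 ligand that binds Plxnb2, had the lowest p-value among the members. Saline rats 1 to 4 had 27.5, 28.6, 30.5 and 33.3 CPM and METH rats 1 to 4 had 23.2, 26.0, 21.0 and 23.1 CPM. The highest METH rat was below the lowest saline rat, by a small margin, and the exact permutation test again gave a p of 0.0286. From 30.0 ± 2.54 CPM (SD, n = 4) for saline to 23.3 ± 2.09 CPM (SD, n = 4) for METH, the log2 fold change was -0.36 (standard error 0.10, 95% interval from -0.58 to -0.14). Its unadjusted p was 0.00354 and its FDR 0.204 by the edgeR quasi-likelihood test, and with any single rat left out the unadjusted p of that test stayed at or below 0.0164. Without METH rat 3 the log2 fold change was -0.31. Over the alternative fits its FDR ranged from 0.0696 to 0.491.

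Sema5a, a transmembrane ligand with thrombospondin repeats that is found in oligodendrocyte lineage cells and neurons, was at 47.8, 43.0, 55.0 and 50.2 CPM in saline rats 1 to 4 and at 42.0, 45.3, 33.2 and 44.8 CPM in METH rats 1 to 4. METH rat 3 was the lowest of the 8 rats, and METH rats 2 and 4 were above saline rat 2. The exact permutation test gave a two-sided p of 0.0857. The log2 fold change was -0.25 (standard error 0.11, unadjusted p = 0.0453, edgeR quasi-likelihood FDR = 0.432). Without METH rat 3 it was -0.15 with a p of 0.130 in the same test, without saline rat 3 it was -0.19 with a p of 0.131, and the p was also above 0.05 without saline rat 1, saline rat 4 or METH rat 1. A protein-coding gene model overlaps Sema5a in RefSeq (GRCr8). The oligodendrocyte precursor markers Pdgfra, Cspg4, Gpr17 and Bmp4 had negative log2 fold changes in 4 of 4 genes, against 51.4% of all genes tested. Of these markers 0 were called, and they summed to 132 to 175 CPM in saline rats and 122 to 134 CPM in METH rats. Bmp4 ranged from 0.587 CPM in METH rat 1 to 13.6 CPM in METH rat 3, its lowest and highest rat. The part of these markers in the value of Sema5a was not tested.

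**Figure D2:**
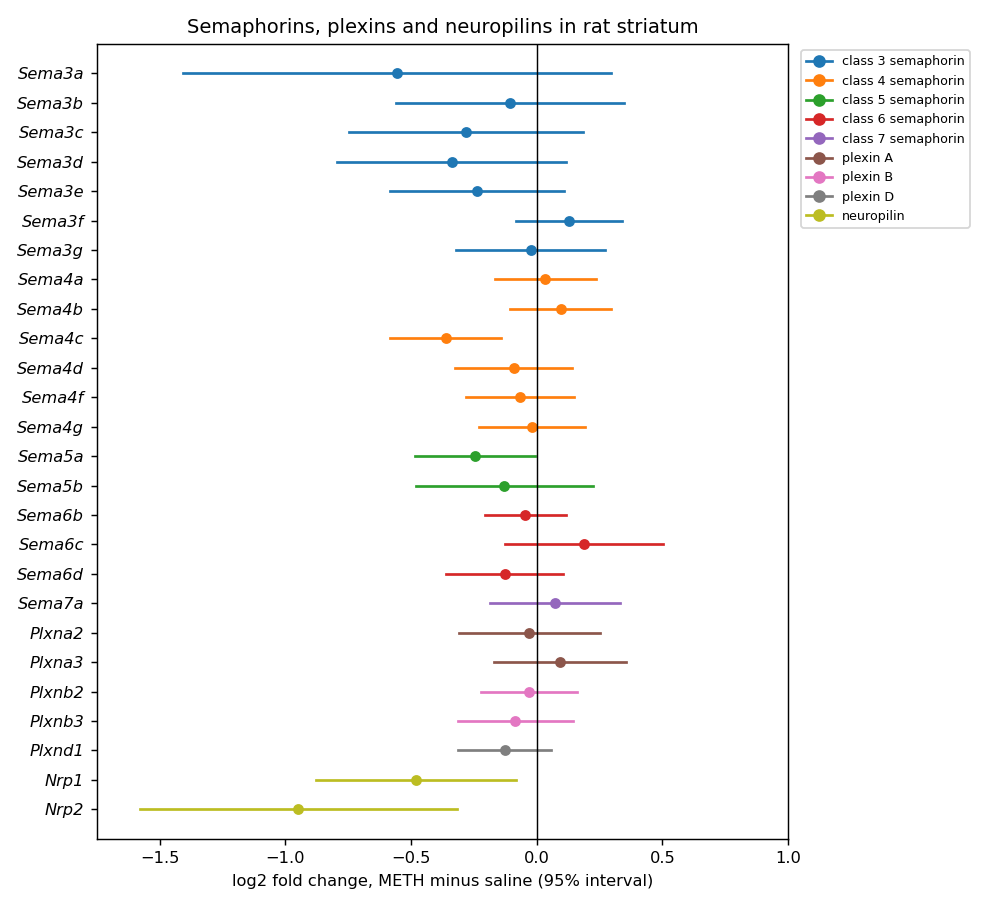
Log2 fold change of METH against saline rats for each of the 26 members, with its 95% interval, coloured by class. Most points lie left of 0, and the intervals of Nrp2, Nrp1, Sema4c and Sema5a are the ones that do not reach it.

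Over all members, 20 of 26 had a negative log2 fold change, a share of 76.9% against 51.4% of all genes tested, and the median was -0.09 against -0.01. These counts describe the list and are not a test of it, since its genes share cell types and rats. With 1 rat left out the median lay between -0.12 and -0.04 and the count of negative values between 17 and 20, the smallest of both without METH rat 4. The range ran from -0.95 for Nrp2 to 0.19 for Sema6c. The per-gene 95% interval lay inside a 1.5-fold change in either direction for 21 members and inside a 2-fold change for 24. The members whose interval reached beyond a 1.5-fold change were Nrp1, Nrp2, Sema3a, Sema3c and Sema3d. Summed over the 26 genes, the level was 1540 ± 74.7 CPM (SD, n = 4) for saline and 1497 ± 77.1 CPM (SD, n = 4) for METH, and the groups overlapped.

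The class 3 semaphorins are the secreted ligands, most of which need a neuropilin to reach a plexin. Of the 7 measured, 6 had a negative log2 fold change and 0 had an unadjusted p below 0.05. Sema3a, the growth cone-collapsing ligand of Nrp1, had only 12 to 48 counts per rat and a log2 fold change of -0.56 with an interval from -1.41 to 0.30. Its mean log2 CPM was 0.51, so that it could not have been called under the threshold on expression. Sema3d (-0.34), Sema3c (-0.28) and Sema3e (-0.24) followed. With 1 rat left out Sema3a was at -0.85 (without METH rat 3) to -0.31 (without saline rat 3), Sema3c at -0.49 (without METH rat 1) to -0.16 (without METH rat 3), and Sema3e reached -0.10 (without saline rat 3) and -0.13 (without METH rat 3). The unadjusted p of Sema3c in these fits was 0.0364 to 0.472 by the edgeR quasi-likelihood test, and at least 0.05 in 7 of them. Sema3e, which binds Plxnd1 without a neuropilin, was at 16.05 to 25.2 CPM in saline rats and 13.0 to 20.1 CPM in METH rats, and METH rat 3 was the lowest.

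Sema3f, the ligand of Nrp2, stood on the other side of 0. It was at 40.4, 46.5, 45.3 and 44.2 CPM in saline rats 1 to 4 and at 40.6, 50.5, 54.2 and 47.7 CPM in METH rats 1 to 4, with a log2 fold change of 0.13 (its standard error was 0.10; edgeR quasi-likelihood FDR = 0.632). The groups overlapped. Without METH rat 1 its log2 fold change was 0.20 with an unadjusted p of 0.0431 in the edgeR quasi-likelihood test. In the 7 other fits with 1 rat left out that p was above 0.05, up to 0.479, and the smallest log2 fold change was 0.07. Sema3g, an endothelial ligand, and Sema3b had log2 fold changes of -0.02 and -0.11.

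Among the membrane-bound class 4 semaphorins, Sema4c was alone in an unadjusted p below 0.05. The other 5 lay between -0.09 (Sema4d) and 0.10 (Sema4b). Sema4b was at 24.1 ± 1.74 CPM (SD, n = 4) for saline and 25.8 ± 0.676 CPM (SD, n = 4) for METH. Sema4a, Sema4f and Sema4g had means of 46.3, 79.5 and 26.8 CPM in saline rats and 47.4, 75.9 and 26.5 CPM in METH rats. The 95% intervals of these 5 genes stayed between -0.32 and 0.30.

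Class 6 semaphorins are transmembrane ligands of A-type plexins that can also act as receptors. Sema6b was at 223.5 ± 9.95 CPM (SD, n = 4) for saline and 216.7 ± 15.5 CPM (SD, n = 4) for METH. Sema6c had the highest log2 fold change of any member, 0.19, with a standard error of 0.15 and an FDR of 0.642 by the edgeR quasi-likelihood test. METH rats 3 and 4, at 23.3 CPM each, were above the saline range of 15.7 to 20.25 CPM, METH rat 2, at 20.33 CPM, was just above it, and METH rat 1, at 14.9 CPM, was below it. With 1 rat left out the log2 fold change lay between 0.12 and 0.31, the highest without METH rat 1. The edgeR quasi-likelihood p was at least 0.05 in 7 of these fits. Sema6d had a log2 fold change of -0.13 and ranged from 61.5 to 88.9 CPM in saline rats.

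Sema7a is anchored to the membrane by a lipid and can signal through integrins and Plxnc1. Saline rats 1 to 4 had 213.9, 274.1, 262.1 and 269.6 CPM and METH rats 1 to 4 had 276.3, 261.8, 325.9 and 208.6 CPM. The highest and the lowest rat were both in the METH group. Its log2 fold change was 0.07 (95% interval from -0.19 to 0.33, edgeR quasi-likelihood FDR = 0.846), and without METH rat 3 it was -0.03.

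The 5 plexins had log2 fold changes between -0.13 (Plxnd1) and 0.09 (Plxna3), and 0 of them had an unadjusted p below 0.05. Plxna2, a receptor for class 6 semaphorins, was at 181.8, 165.7, 248.7 and 218.9 CPM in saline rats 1 to 4 and at 188.6, 235.1, 166.0 and 209.1 CPM in METH rats 1 to 4. The rats of both groups covered the same range, and the log2 fold change was -0.03 (95% interval from -0.31 to 0.25). Plxnd1, the Sema3e receptor of striatal projection neurons and endothelium, was at 120.8 ± 5.29 CPM (SD, n = 4) for saline and 110.6 ± 12.6 CPM (SD, n = 4) for METH, with an FDR of 0.583 in the edgeR quasi-likelihood test, and without METH rat 2 its log2 fold change was -0.21. With 1 rat left out its log2 fold change was -0.21 to -0.08 and its unadjusted p in that test was 0.0279 to 0.384. The p was at least 0.05 in 7 of these fits. Plxnb2, the receptor of Sema4c, was at 116.0 ± 9.38 CPM (SD, n = 4) for saline and 113.4 ± 11.05 CPM (SD, n = 4) for METH, a log2 fold change of -0.03. Plxna3 was at 24.3 ± 2.00 CPM (SD, n = 4) for saline and 25.9 ± 4.06 CPM (SD, n = 4) for METH. The 95% intervals of Plxna2 and Sema6d, the genes with the Egr site printed above, both included 0.

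**Figure D3:**
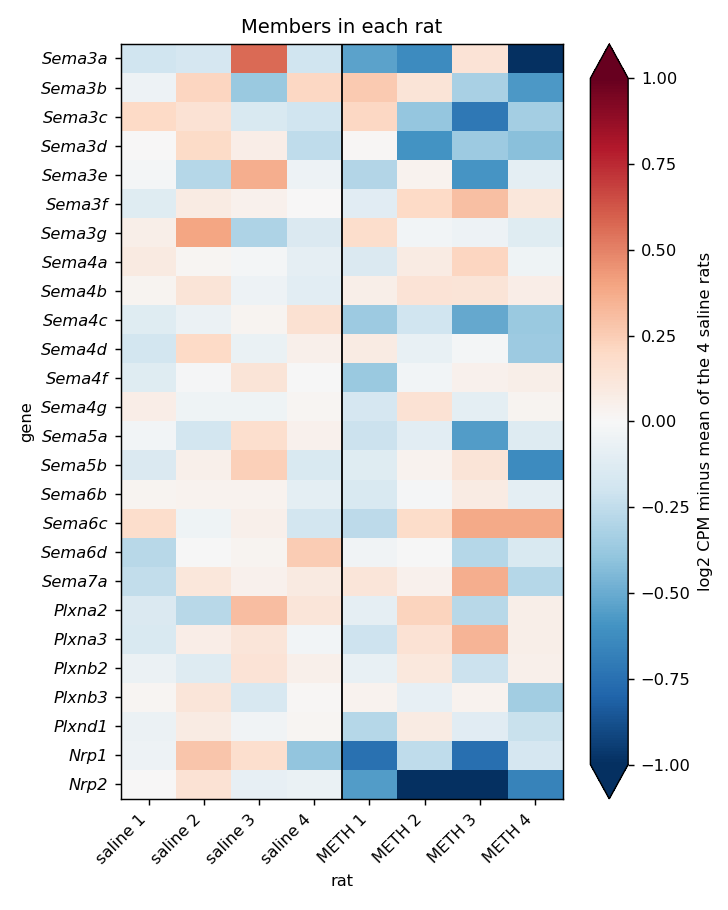
Log2 CPM of each member in each rat minus the mean of the 4 saline rats, with values beyond 1 in either direction shown in the end colours. Nrp1, Nrp2, Sema4c, Sema5a and, faintly, Sema6d are below 0 in all 4 METH rats, while most other genes show both colours within the METH group.

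The extremes were spread over several rats. Of the 26 genes, 7 were lowest of the 8 rats in METH rat 1, 7 in METH rat 3 and 6 in METH rat 4, and 5 had their highest level in METH rat 3. Among saline rats, rat 3 was highest for 7 genes and rat 2 for 6. The coefficient of variation within a group had a median of 10.4% over the members in saline rats and 13.3% in METH rats, against 11.4% and 12.002% for all genes tested. It was highest for Sema3a, at 31.3% and 41.4%, and the lowest value was 2.62%, for Sema4b in METH rats.

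Sema4d, a ligand shed by oligodendrocytes, and Plxnb3, a plexin enriched in oligodendrocytes, were set beside the summed level of the myelin genes Mbp, Mog, Mag, Mobp and Cnp. This sum was 9929.6, 13455, 8882 and 11233 CPM in saline rats 1 to 4 and 12255, 9427, 14303 and 9018 CPM in METH rats 1 to 4, and 0 of the 5 genes were called. Sema4d was at 58.1, 75.8, 63.2 and 68.6 CPM in saline rats 1 to 4 and at 70.1, 62.7, 65.2 and 51.3 CPM in METH rats 1 to 4. The 4 rats with the most myelin RNA were the 4 with the most Sema4d. Plxnb3 was at 32.5, 34.9, 28.7 and 32.3 CPM in saline rats 1 to 4 and at 32.9, 30.3, 32.8 and 25.2 CPM in METH rats 1 to 4. Saline rat 2 was highest and METH rat 4 lowest for both members, while the myelin sum was highest in METH rat 3 and lowest in saline rat 3. The log2 fold changes were -0.09 for Sema4d and -0.08 for Plxnb3. Sema3b, another member examined beside this sum, was at 7.90, 9.55, 6.33 and 9.50 CPM in saline rats 1 to 4. In METH rats 1 to 4 it was at 9.84, 8.997, 6.55 and 5.48 CPM. Counted from the highest rat, saline rats 1 and 2 had ranks 5 and 2 for both Sema3b and the myelin sum. METH rat 3 had rank 1 for the sum and rank 6 for Sema3b. The part of myelinating cells in these values was not tested.

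**Figure D4:**
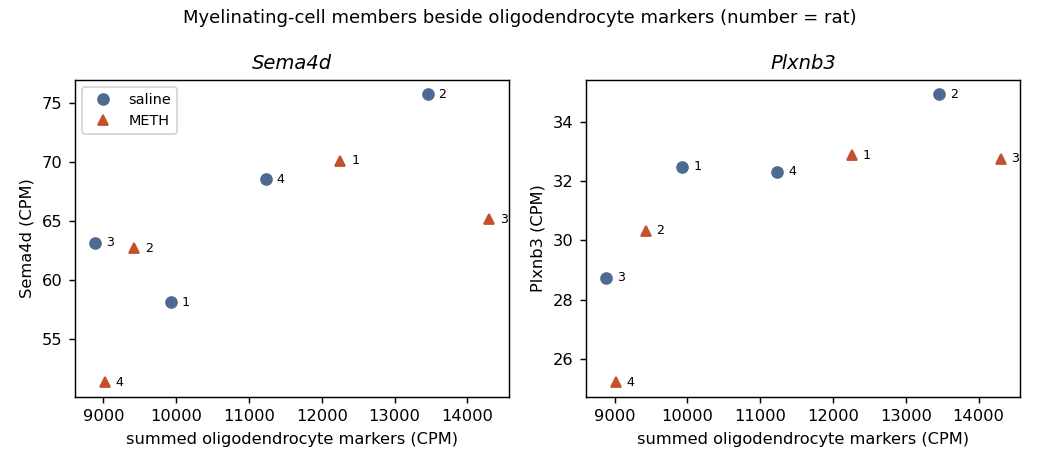
Level of Sema4d and Plxnb3 (CPM) against the summed level of 5 oligodendrocyte markers (CPM), 1 point per rat with its number, circles for saline and triangles for METH. Rats with more myelin RNA tend to sit higher in both panels, METH rat 4 is lowest and saline rat 2 highest in both, and the groups are intermixed. The axes do not start at 0.

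Beyond the ligands and receptors, a list of 54 genes was examined that holds cytoplasmic effectors of plexins, coreceptors and the other ligands of neuropilins. Of these, 53 were listed in the count data and 51 were tested. Of the 51 tested, 1 (Rnd3) was called higher and 0 were called lower, against 0.449% and 0.0666% of all genes tested. At an unadjusted p below 0.05, 5 genes were higher and 3 were lower, or 9.80% and 5.88% of those tested, against 6.26% and 4.88% of all genes. In 4 of the 51 genes the groups did not overlap, Rnd3 and Furin higher and Mical1 and Dpysl2 lower in METH rats. Of all 12014 genes tested, 768 did not overlap, 3.75% with METH higher and 2.65% with METH lower. The median log2 fold change of the list was -0.05.

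Rnd3 encodes an atypical small GTPase that binds GTP constitutively and opposes the kinase Rock1, a regulator of actin contraction. It was at 16.6, 18.0, 16.5 and 17.4 CPM in saline rats 1 to 4 and at 40.1, 25.4, 31.6 and 33.3 CPM in METH rats 1 to 4. Every METH rat was above every saline rat. The mean was 17.1 ± 0.694 CPM (SD, n = 4) for saline and 32.6 ± 6.05 CPM (SD, n = 4) for METH, a log2 fold change of 0.93 (standard error 0.13, 95% interval from 0.65 to 1.20, edgeR quasi-likelihood FDR = 0.00343). It was called in all 19 alternative fits, with an FDR of at most 0.0299.

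The other 4 genes on the higher side were not called. Vegfa, the growth factor that binds neuropilins, was at 130.03, 152.1, 128.7 and 149.1 CPM in saline rats 1 to 4 and at 146.9, 174.3, 206.5 and 199.5 CPM in METH rats 1 to 4. METH rat 1 lay within the saline range, and the log2 fold change was 0.38 (unadjusted p = 0.00341, edgeR quasi-likelihood FDR = 0.200). Furin, a protease that processes class 3 semaphorins and growth factors, had a log2 fold change of 0.31 and did not overlap between the groups. Sh3bp1, a GTPase regulator bound by Plxnd1, had 0.39, and Cdk5, a kinase in the response to Sema3a, had 0.22, with FDR values of 0.295 and 0.391 in the edgeR quasi-likelihood test.

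On the lower side, Mical1, an oxidase that disassembles actin downstream of A-type plexins, was at 5.65, 5.95, 3.91 and 5.15 CPM in saline rats 1 to 4 and at 3.62, 3.14, 2.82 and 2.64 CPM in METH rats 1 to 4. The groups did not overlap, and the log2 fold change was -0.75 with an FDR of 0.219 in the edgeR quasi-likelihood test. Dpysl2, the collapsin response mediator that carries the Sema3a signal to microtubules, had a log2 fold change of -0.15 and no overlap between groups (unadjusted p = 0.0394, edgeR quasi-likelihood FDR = 0.427). Flt1, which is also in the endothelial list, had -0.21 (edgeR quasi-likelihood FDR = 0.441), and its groups overlapped. With 1 rat left out, the edgeR quasi-likelihood p was above 0.05 for Cdk5 without saline rat 2, saline rat 3, METH rat 3 or METH rat 4 (at most 0.0811), and for Dpysl2 without saline rat 2, saline rat 4, METH rat 2 or METH rat 4 (at most 0.121). For Flt1 it did so without saline rat 2, saline rat 4 or any METH rat, and without saline rat 2 its log2 fold change was -0.12 with an edgeR p of 0.190.

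**Figure D5:**
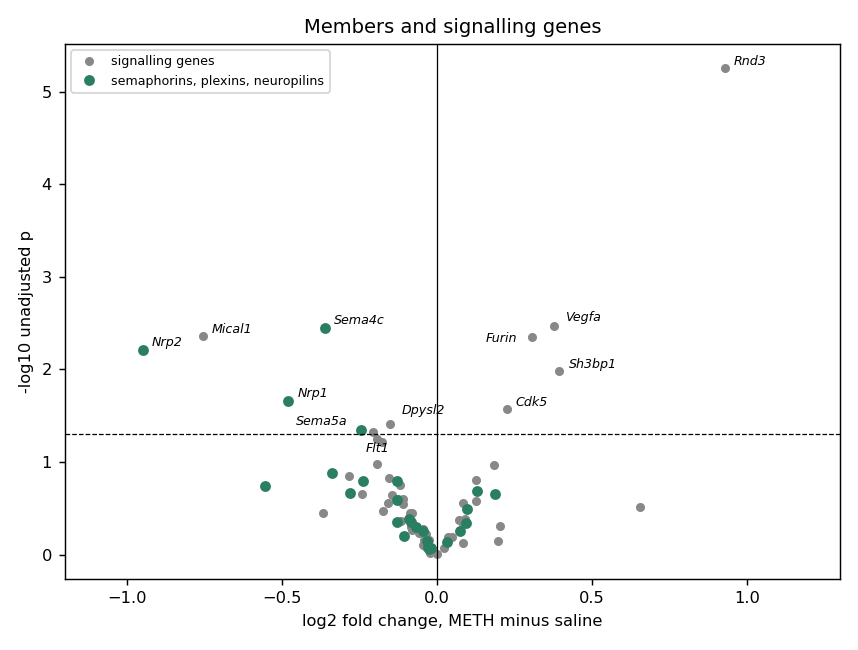
Log2 fold change of METH against saline rats against −log10 of its unadjusted p from edgeR's quasi-likelihood fit, for the 26 members (green) and the 51 tested signaling genes (gray), with a dashed line at p of 0.05. Rnd3 stands alone at the upper right, and the members above the line, Nrp2, Nrp1, Sema4c and Sema5a, are all on the left.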

How the data were processed

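Striatal poly(A) RNA of 8 rats (4 METH, 4 saline) was sequenced as paired-end reads. Per the labels, the authors used Cutadapt 1.18 for trimming, STAR 2.7.0e for alignment (rn6) and featureCounts of Subread 1.6.4 for counting, and deposited raw counts per gene symbol. The annotation, strand setting and treatment of multi-mapping reads are not given in the sources used here. Without strand, a gene and an antisense partner cannot be told apart, and in the RefSeq gene table of GRCr8 another gene model overlaps 13 of the 26 members, Nrp1, Nrp2 and Sema5a among them. Gene lengths of the files' build were not used here, so levels of different genes were not compared.

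The tools were edgeR 4.0.16, DESeq2 1.42.0 and limma 3.58.1, run in R 4.3.3. Low genes were removed by filterByExpr (minimum count 10), and counts were scaled with TMM and tested over all genes with the quasi-likelihood F-test and Benjamini-Hochberg adjustment. Calls required an FDR under 0.05 and a mean log2 CPM over 1. Log2 CPM for permutation and principal components added a prior count of 2. Each standard error is the log2 fold change divided by the square root of F, and 95% intervals use its degrees of freedom. Single genes were compared by exact two-sided permutation over 70 relabellings. The fit was tested on simulated counts. Per-rat totals ranged from 18135939 to 21211920, and no library was a copy of another in its group (chi-square of 10.4 to 28.8 per degree of freedom between them).

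Members, gene lists and tests were chosen with earlier results of these data known. Values in every rat are given for members called, with an unadjusted p below 0.05 or with groups that do not overlap. Sema3f, Plxna2, Sema7a, Sema4d and Plxnb3 were added by known role after their values were seen. Sema3b was added as well, since it was set beside the myelin sum. Alternatives were other tests, scalings, filters, call rules, each rat left out, and the rat number as a block. Promoter sequences are from RefSeq (GRCr8). For 6 members no start window was used here, and 3 marker genes of the cell type lists are not reported here and were left out of the sums.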

Additional observations from a re-analysis of the deposited data

Results flagged for a closer look

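In each group of 4, the farthest rat's gap to the next value was divided by the group's range and set against Dixon's 95% critical value. Of 86 groups of values, 4 were past it, about the 5% that chance gives, and of the 52 groups of members 2 were. Sema3a in saline rat 3 was at 2.32 CPM, against 1.32 to 1.35 CPM in the other saline rats (share 0.967). Sema6b in saline rat 4 was at 208.6 CPM, against 227.7 to 229.0 CPM (share 0.933). The summed cortical excitatory neuron markers were at 78.5 CPM in saline rat 1 against 10.3 to 10.8 CPM in the other saline rats (share 0.992), with 1198 counts of Slc17a7 in that rat. On the first principal component METH rat 3 lay at 39.5 against 0.257 to 5.29 in the other METH rats (share 0.872).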

How the results depend on the processing

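The calls of members, 0 higher and 0 lower, were the same under every alternative run, and so was the 1 call in the signaling list, Rnd3. The lowest FDR reached by a member was 0.0649, for Nrp2. The count of all called genes moved from 62 to 168 with the edgeR exact test, 170 with the likelihood ratio test and 191 with DESeq2, and the cause was not tested. With 1 rat left out, members lower at an unadjusted p below 0.05 ranged from 2 to 5 (2 without METH rat 3 or without saline rat 3, Nrp2 and Sema4c in both), members higher from 0 to 2 (Sema3f and Sema6c without METH rat 1), and all called genes from 37 to 70 (37 without saline rat 2). Same-numbered rats are different animals, and their deviations from the group means correlated at -0.20 to 0.04. With the replicate block 37 genes were called, 3 members were lower at that p, and the values for Nrp2 were -0.98 (log2) and 0.504 (edgeR quasi-likelihood FDR). Sema5a was the member past 0.05, at an edgeR p of 0.0872. The sign changed with limma-voom for Sema3g (0.00055) and with total-count scaling for Sema4a (-0.0041). With a rat left out it changed for Plxna2 (-0.117 to 0.0802), Plxnb2 (-0.0796 to 0.0258), Sema3b (-0.245 to 0.0268), Sema3g (-0.121 to 0.124), Sema4a (-0.0323 to 0.0888), Sema4f (-0.111 to 0.0214), Sema4g (-0.0774 to 0.0281), Sema5b (-0.220 to 0.0082) and Sema7a (-0.0344 to 0.176). Depth limits Nrp2 and Sema3a most, with at most 68 and 48 counts in any rat.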
